A study of Bos taurus with 16 samples.

Results

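CD14, the Toll-like receptors TLR2, TLR3, TLR4, TLR6, TLR7, TLR8, TLR9 and TLR10, and the adaptor MYD88 form the group of 10 genes examined here. Its members were found on the array by gene name. Of the 10 genes, 9 had a probe, MYD88 had 2 probes, and no probe was found under TLR10, so the group is 9 of 20596 gene names and 10 of the 21475 probes on the array, controls aside. Each of these probes is a sequence of 60 bases printed as 2 spots.

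RNA was measured in CD14+ cells sorted from interplacentomal endometrium, the uterine lining between the sites of placental attachment, and from peripheral blood of the same 4 pregnant cows. The labels name no treatment, and the days of pregnancy of the cows, estimated from fetal length, were 164 (animal 1), 239 (animal 2), 242 (animal 3) and 248 (animal 4). Both tissues of a cow were hybridized against each other on 2 arrays with the dyes Cy3 and Cy5, which gives 8 arrays and 16 samples. Dyes were swapped between the 2 arrays of animals 1, 2 and 4, whereas blood carried Cy3 on both arrays of animal 3. Endometrial cells came from tissue digested with collagenase and blood cells from the mononuclear fraction, and flow cytometry rated the endometrial preparations as less pure than the blood preparations. That rating is by CD14 protein on the surface, and RNA levels of marker genes are given below. Each level is an intensity of sorted cells in bulk, so fewer cells of a type and less RNA per cell cannot be told apart.

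Toll-like receptors are transmembrane proteins that bind conserved molecules of microbes. TLR2, TLR4 and TLR6 work at the cell surface, TLR2 with TLR6 on bacterial lipopeptides and TLR4 with LY96 on lipopolysaccharide, which CD14 hands over to them, while TLR3, TLR7, TLR8 and TLR9 bind nucleic acids in endosomes. All of these but TLR3 signal through MYD88 to NF-kappa-B and to MAP kinases, and CD14 on the surface is the usual mark by which monocytes and macrophages are sorted.

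The probes that carry the results are shown by the last 30 of their 60 bases, 5′ to 3′ as in the scanner files. CD14, TLR2 and TLR4 are shown because animal 1 stood apart in them, TLR3 because its tissues did not overlap, and MYD88 because its 2 probes gave different ratios. Capitals mark AATAAA, the usual polyadenylation signal.
CD14: tgccctggctccgggagaccctcgccagga
TLR2: taacccaaggtgcagtaaattatgtatttc
TLR4: aaactcttagagacatgctggacatatcca
TLR3: aggcctatgaaaacagttttgaaatagtcc
MYD88 A_73_106547: atAATAAAgagtctctactttgggagcaaa
MYD88 A_73_119857: ccccagcatcctgcgcttcatcactgtctg
Searched on the strand given, AATAAA was in the full 60 bases of 3 of the 10 probes, those of TLR4 (position 27 from the 5′ end), TLR6 (position 52) and MYD88 A_73_106547 (position 33). It was in 11.9% of the 21256 probes of 60 bases on the array. The other MYD88 probe did not hold it, so the 2 probes of this gene differ in sequence and in this feature. None of the 10 probes shared a run of 20 bases, on either strand, with any other probe of the array. Shorter or imperfect matches, and matches to transcripts without a probe, were not searched. Whether a probe also binds other transcripts was therefore not tested. In the gene table of assembly ARS-UCD2.0, TLR7 and TLR8 are neighbors, as are TLR6 and TLR10.

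Across all probes, 16653 were tested because, in 1 tissue or both, 4 or more of 8 channels read well above background. All 10 probes of the group were among them, and 6 of the 10 were well above background in all 16 channels. The 2 arrays of an animal gave close log2 ratios of endometrium over blood for the group, with a largest difference of 0.35, in TLR3. Of the monocyte and macrophage markers that check the labeled cell type, CSF1R, the receptor of macrophage colony-stimulating factor, had log2 levels of 13.003, 6.64, 8.13 and 6.95 in blood and 14.40, 9.15, 11.27 and 10.95 in endometrium of animals 1 to 4. CSF1R was thus high in both tissues of animal 1 and low in the blood of the others. In that blood CD68, CD163 and ITGAM were low as well, with CD68 at 6.95, 7.66 and 7.64. The other markers of the list were higher there, with LYZ at 10.24, 11.49 and 11.37 and SPI1 at 9.69, 12.72 and 10.65. CSF1R alone therefore does not stand for the list. Levels here are log2 normalized intensities, on which a probe at background sits near 6 because of the offset added before the logarithm.

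**Figure D1:**
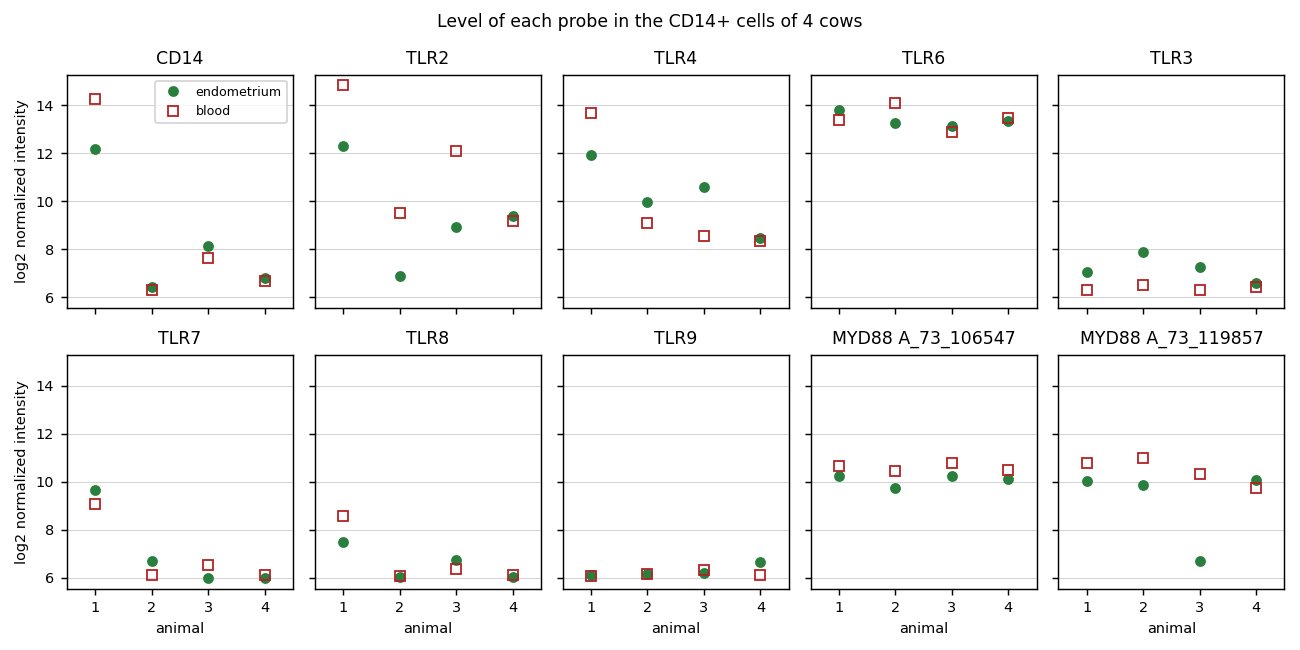
Log2 normalized intensity (y axis) of each of the 10 probes in each of the 4 cows (x axis), with filled circles for endometrium and open squares for blood, each the mean of 2 arrays. In the CD14, TLR2, TLR4, TLR7 and TLR8 panels both symbols of animal 1 lie above those of the other animals, whereas the TLR6 panel is nearly flat from 12.90 to 14.07.

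CD14, the gene whose product was used to sort the cells, showed no tissue difference beyond the spread between animals, which was wide. Its log2 level in blood was 14.24, 6.31, 7.63 and 6.69 in animals 1 to 4, and in endometrium it was 12.17, 6.41, 8.14 and 6.82. Animal 1 was far above the others in both tissues, and in animals 2 and 4 both tissues were close to the bottom of the scale. Before normalization, the median blood intensity of the CD14 probe was 30752.5 and 17684 on the 2 arrays of animal 1 and between 28 and 107.5 on the 6 arrays of the other animals. Local background in the same blood channels ran from 13 to 53.5, and the probe was rated well above it in all 16 channels. Within animals the log2 ratio, endometrium over blood, was -2.08 in animal 1 and 0.11, 0.51 and 0.13 in animals 2 to 4. Its mean was -0.33 (SE 0.48, n = 4 animals, 95% interval -1.54 to 0.87, adjusted p = 0.782, limma). Without animal 1 it was 0.25 with an adjusted p of 0.734, so animal 1 set the sign of the mean.

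Among the surface receptors, TLR2 had the largest mean difference of the group. Its log2 level was 14.83, 9.495, 12.11 and 9.19 in blood and 12.31, 6.88, 8.92 and 9.39 in endometrium. Blood was the higher tissue in animals 1, 2 and 3, by log2 ratios of -2.52, -2.62 and -3.18, and animal 4 had a ratio of 0.20. The mean log2 ratio was -2.03, a level 4.09-fold higher in blood (SE 0.60, n = 4, 95% interval -3.53 to -0.53). TLR2 had an unadjusted p of 0.0168 and an adjusted p of 0.267 (limma), so it did not pass the test across all probes. TLR2 reached an adjusted p of 0.0355 (limma) when all 8 arrays entered the fit, with dye as a term and the animals as random blocks. That fit counts the 2 technical arrays of an animal as partly separate. For TLR2 they differed by at most 0.071 in log2 ratio, and the animals were still 4, so this p value is no stronger evidence.

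TLR4, the receptor of lipopolysaccharide, went in different directions in different animals. In blood its log2 level was 13.65, 9.11, 8.54 and 8.33, and in endometrium it was 11.91, 9.95, 10.59 and 8.47. Blood was the higher tissue in animal 1 (log2 ratio -1.74) and endometrium in animals 2, 3 and 4 (0.84, 2.05 and 0.14). The mean log2 ratio of TLR4 was 0.32 (SE 0.62, n = 4, adjusted p = 0.848, limma). It was 1.01 without animal 1 and -0.26 without animal 3.

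The single probe of TLR6, which pairs with TLR2, was the steadiest of the surface receptor probes between animals. Whether transcripts other than TLR6 add to its signal was not tested. Log2 levels of TLR6 were 13.37, 14.07, 12.90 and 13.46 in blood and 13.78, 13.25, 13.13 and 13.35 in endometrium. The tissues overlapped, each being higher in 2 of the 4 animals, and the mean log2 ratio was -0.07 (SE 0.28, n = 4, 95% interval -0.78 to 0.64, adjusted p = 0.936, limma).

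Of the endosomal receptors, TLR3, the receptor of double-stranded RNA, was higher in the endometrium of every animal. Its log2 level was 6.30, 6.49, 6.29 and 6.42 in blood and 7.04, 7.88, 7.26 and 6.61 in endometrium. The lowest endometrial level, that of animal 4, lay above the highest blood level, so the tissues did not overlap, and blood was near the bottom of the scale in all 4 animals. Ratios within animals were 0.74, 1.38, 0.96 and 0.20 on the log2 scale, with a mean of 0.82, or 1.77-fold (SE 0.27, n = 4, 95% interval 0.145 to 1.496). TLR3 had an unadjusted p of 0.0256 and an adjusted p of 0.278 (limma). The size of the TLR3 ratio moved with the processing. The mean log2 ratio was 1.21 with a normexp offset of 16 (adjusted p = 0.230, limma) and 2.14 in the authors' log2 values (adjusted p = 0.163, limma). An offset added to both channels draws the ratio of a dim probe toward 0 by construction, and a larger offset does so more. Other causes of the change were not tested. In the authors' values the ratios were 2.59, 2.83, 2.49 and 0.66 in animals 1 to 4, again smallest in animal 4.

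TLR7 and TLR8, receptors of single-stranded RNA, had their highest levels in animal 1 in both tissues. TLR7 had log2 levels of 9.06, 6.13, 6.55 and 6.11 in blood and 9.66, 6.69, 5.997 and 5.995 in endometrium, and the endometrial probe was not well above background on any array of animals 3 and 4. TLR8 had log2 levels of 8.58, 6.06, 6.36 and 6.10 in blood and 7.47, 6.02, 6.74 and 6.05 in endometrium, and was well above background in both tissues of animals 1 and 3 but in neither tissue of animals 2 and 4. The mean log2 ratio was 0.12 (SE 0.29, n = 4) for TLR7 and -0.20 (SE 0.31, n = 4) for TLR8, with adjusted p values of 0.878 and 0.792 (limma). Within animal 1, where both were well above background on every array, the log2 ratio was 0.60 for TLR7 and -1.11 for TLR8.

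TLR9, the receptor of unmethylated CpG DNA, was dim throughout. Its log2 level lay between 6.09 and 6.34 in blood and at 6.12, 6.16, 6.20 and 6.66 in endometrium, so that the endometrium of animal 4 was the highest sample. TLR9 was well above background in 4 of the 8 channels of each tissue. A mean log2 ratio of 0.12 (SE 0.23, n = 4, adjusted p = 0.846, limma) gave no difference beyond the spread between animals.

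MYD88, the adaptor that links most of these receptors to their kinases, was measured by 2 probes that did not give the same ratio. Probe A_73_106547 had log2 levels of 10.67, 10.43, 10.80 and 10.503 in blood and 10.26, 9.73, 10.25 and 10.09 in endometrium. Blood was higher in all 4 animals and the tissues did not overlap. The log2 ratios of this probe were -0.41, -0.71, -0.55 and -0.41, and their mean was -0.52, or 1.43-fold higher in blood (SE 0.20, n = 4, 95% interval -1.03 to -0.01, unadjusted p = 0.0473, adjusted p = 0.322, limma). Probe A_73_119857 had log2 levels of 10.78, 10.97, 10.33 and 9.73 in blood and 10.01, 9.87, 6.68 and 10.07 in endometrium. The endometrium of animal 3 stood alone at the low end, and blood was higher in animals 1, 2 and 3 but not in animal 4. Its mean log2 ratio was -1.30 (SE 0.66, n = 4, 95% interval -2.95 to 0.36, adjusted p = 0.401, limma), and without animal 3 it was -0.51. In the endometrium of animal 3 the median intensity of this probe was 92.25 and 107.25 on the 2 arrays, over local backgrounds of 40.5 and 39, and the first probe in the same channels read 1668.5 and 1886.

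**Figure D2:**
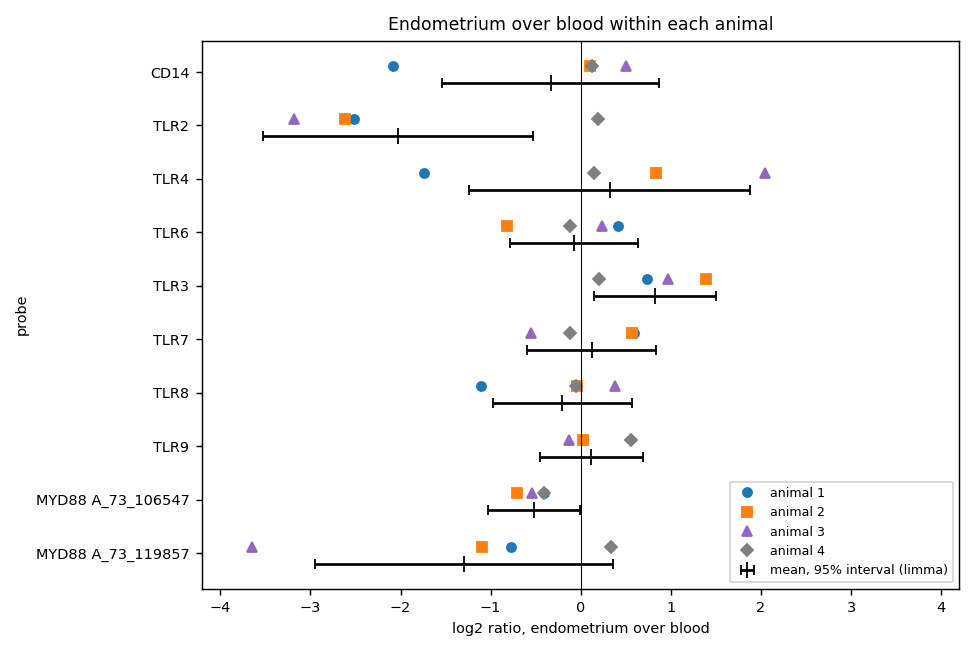
Log2 ratio of endometrium over blood (x axis) for each of the 10 probes (y axis), with 1 symbol for each of the 4 animals and, below them, the mean with its 95% interval from limma. Every animal lies to the right of 0 for TLR3 and to the left for MYD88 A_73_106547, while CD14 spans from -2.08 in animal 1 to 0.51 in animal 3.

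Taking the 10 probes as a group, none was called (adjusted p up to 0.05 and fold change above 2, limma), against 0.0661% of all probes tested, all of the called probes being higher in endometrium. An unadjusted p up to 0.05 was reached by 3 of the 10 (TLR2, TLR3 and MYD88 A_73_106547), against 15.2% of all probes tested. With a fold change above 2 as well, TLR2 was the only one in blood and none was higher in endometrium, against 5.11% of all probes tested in blood and 5.27% in endometrium. That count depends on the processing, since TLR3 met the same rule in the authors' log2 values (4.41-fold, unadjusted p = 0.00543, limma). No share of all probes was counted for this rule in those values. The log2 ratio was above 0 in 4 of 4 animals for 1 probe (TLR3), against 10.2% of all probes tested, and below 0 in 4 of 4 for 1 probe (MYD88 A_73_106547), against 14.7%. These same 2 probes had tissues that did not overlap, against 2.41% of all probes tested with endometrium above blood and 3.03% with blood above endometrium. The median log2 ratio was -0.14 over the 10 probes and -0.02 over all probes tested.

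The difference between animals was larger than that between tissues for several members. Animal 1 was the highest of the 4 in both tissues for 5 of the 10 probes, those of CD14, TLR2, TLR4, TLR7 and TLR8, against 12.6% of all probes tested. This comparison was chosen after the values were seen and rests on 1 animal, so it is a description with no test. Averaged over both tissues, the log2 level of animal 1 less the mean of the others was 6.20 for CD14, the highest of all 16653 probes tested. It was 4.24 for TLR2 (rank 89), 3.62 for TLR4 (rank 193), 3.12 for TLR7 (rank 327) and 1.81 for TLR8 (rank 980). For CD14 the difference was 7.37 in blood and 5.04 in endometrium, so it was seen in both tissues. The members without it were MYD88 A_73_119857 (0.79), TLR6 (0.22), MYD88 A_73_106547 (0.16), TLR3 (-0.16) and TLR9 (-0.17), set against a median of -0.15 and an SD of 1.096 over all probes tested. Animal 1 was also the earliest in pregnancy, and the animal and its day of pregnancy cannot be told apart.

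Markers of cell types moved between animals beside these members. Averaged over both tissues, as in all such counts here, all 10 monocyte and macrophage markers were higher in animal 1 than in the mean of the others. In endometrium alone LYZ was not, with a log2 difference of -0.118. The median log2 difference of the 10 markers, averaged over both tissues, was 2.81. Their summed level, as log2, was 17.21 in the blood of animal 1 and 13.27, 13.88 and 13.14 in that of animals 2 to 4, and in endometrium it was 16.82, 14.27, 15.55 and 15.27. None of the 8 markers of T and natural killer cells was higher in animal 1, and their median difference was -3.74. Their summed level was 11.33 in the blood of animal 1 and 14.64, 13.84 and 14.77 in the others, and 13.95 against 16.07, 14.76 and 14.76 in endometrium. CD3E, a chain of the T cell receptor complex, had a log2 level of 7.19 in the blood of animal 1 and 12.32, 11.26 and 12.50 in that of the others. Thus the blood samples with a low CD14 level had the higher T cell level. In animals 2 to 4 these RNA levels stand in contrast to the higher purity of blood by flow cytometry, and the reason was not tested. Of 7 B cell markers, 1 (CD22) was higher in animal 1, by only 0.044, with 0.42 in endometrium and -0.33 in blood. The summed level of the B cell markers in blood was 12.85 in animal 1 and 14.03, 15.55 and 14.65 in the others. Of 6 granulocyte markers, 4 were higher in animal 1. Their summed level in blood was 12.96 in animal 1 and 9.40, 9.38 and 9.15 in the others, and 10.97 against 8.96, 10.61 and 8.90 in endometrium. Markers of stroma and endothelium were higher in animal 1 for 7 of 8 genes, by a median of 3.49. Their summed level was 15.99 in the endometrium of animal 1 and 9.82, 12.09 and 10.56 in the others, and 10.56 against 9.39, 9.48 and 9.22 in blood. The part of these cell types in the CD14, TLR2, TLR4, TLR7 and TLR8 levels was not tested.

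**Figure D3:**
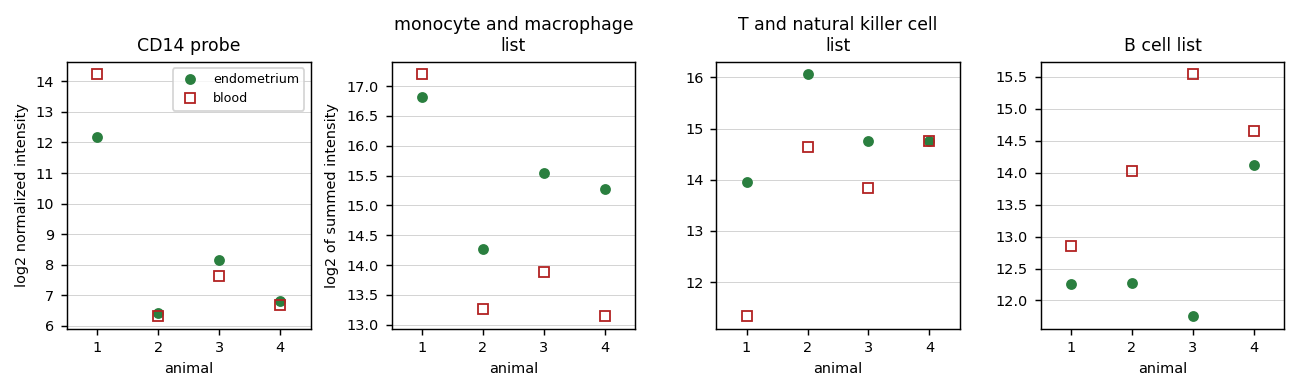
Log2 normalized intensity of the CD14 probe (first panel) and log2 of the summed intensity of the monocyte and macrophage, T and natural killer cell and B cell marker lists (other panels) in each of the 4 cows (x axis), with filled circles for endometrium and open squares for blood and a y axis of its own in each panel. In blood, animal 1 is the highest for CD14 (14.24) and the monocyte and macrophage list (17.21) and the lowest for the T and natural killer cell list (11.33).

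Between tissues, the same lists also differed, beside the ratios given above. All 7 B cell markers had mean log2 ratios below 0, with a median of -1.70, and among them MS4A1, the B cell antigen CD20, had -3.28 (adjusted p = 0.262, limma). All 8 epithelial markers were above 0 in 4 of 4 animals, with a median of 3.11. Of 6 trophoblast markers tested, 5 were above 0 in 4 of 4 animals and 4 of these were called, and the median of the 6 was 4.08. The exception was PAG1, a symbol that also names an adaptor protein of lymphocytes. All 8 markers of stroma and endothelium had mean ratios above 0, with a median of 1.85. The monocyte and macrophage markers were split, 6 above 0 and 4 below. The part of B cells, epithelium, trophoblast and stroma in the TLR2, TLR3 and MYD88 ratios was not tested.

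Genes whose pattern was most like that of CD14 were sought among the 11184 probes well above background in all 16 channels, by the correlation of log2 levels over the 8 combinations of animal and tissue. The closest were RAB32, a small GTPase of the Rab family, VMP1, a membrane protein of autophagy, and F13A1, the A subunit of coagulation factor XIII, each with r = 0.985. Without animal 1 these correlations over the remaining 6 samples were 0.79, 0.76 and 0.69, so they rested in part on that animal. For TLR4 the closest were ANXA3, an annexin (r = 0.993), PGD, an enzyme of the pentose phosphate pathway (r = 0.987), and NAPRT, an enzyme of NAD synthesis (r = 0.981). Over the 6 samples without animal 1 these TLR4 correlations were 0.97, 0.96 and 0.97. For CD14 and TLR4 alike, the genes were picked as the closest of 11184 probes, and the same 6 samples entered that choice. High correlations over these samples are therefore in part a result of the choice and are no separate check of it. Both tissues of a cow share the animal, and each animal's samples share their arrays, so the 8 points are not independent.

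Other genes of the pathway had mostly negative log2 ratios, although none passed the test. Of 80 symbols listed, 74 were found on the array and 70 were tested, and 0 were called at the adjusted threshold, against 19 with an unadjusted p up to 0.05 and a fold change above 2 (limma). Of these 19, 14 were higher in blood and 5 in endometrium, beside 5.11% and 5.27% of all probes tested. The log2 ratio was below 0 for 52 of the 70 genes and above 0 for 18, while 52.6% of all probes tested were below 0. It was below 0 in 4 of 4 animals for 24 genes and above 0 in 4 of 4 for 9, beside 14.7% and 10.2% of all probes tested. The median log2 ratio was -0.61 over the 70 genes and -0.02 over all probes tested.

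Partners of the receptors at the membrane included LY96, which binds lipopolysaccharide beside TLR4. LY96 had log2 ratios of -1.42, -1.20, -0.42 and -0.37, a mean of -0.85 (SE 0.28, n = 4, adjusted p = 0.278, limma), and was higher in blood in every animal although TLR4 itself was not. CD180, a relative of the Toll-like receptors on B cells, had a mean log2 ratio of -1.26, and its partner LY86 had -1.96 (adjusted p values 0.480 and 0.302). LBP, which carries lipopolysaccharide to CD14, had 1.14, a mean that rested on a ratio of 4.01 in animal 3. TREM1, a receptor that amplifies this signaling, had -0.58, and CD36, a scavenger receptor that assists TLR2, was too dim to be tested. TLR5, the flagellin receptor, was also too dim, being well above background in 2 of 8 channels of each tissue.

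Of the adaptors that share the TIR domain with MYD88, TIRAP, the bridge between TLR2 or TLR4 and MYD88, was lower in the endometrium of all 4 animals, as was MYD88 A_73_106547. The log2 ratios of TIRAP were -1.02, -0.38, -1.003 and -0.56, with a mean of -0.74 (SE 0.23, n = 4, unadjusted p = 0.021, adjusted p = 0.273, limma). TICAM1, the adaptor of TLR3, had a mean log2 ratio of -0.03 and TICAM2, which connects TLR4 to TICAM1, had -0.09, with adjusted p values of 0.984 and 0.910. TICAM1 was higher in endometrium in animals 3 and 4 only, so it did not follow TLR3 in sign.

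Downstream, the kinase MAP3K8 had a mean log2 ratio of -1.81, the ubiquitin ligase TRAF3 -1.76, and the MAP kinase kinases MAP2K3 and MAP2K4 -1.59 and -1.31, each below 0 in 4 of 4 animals. RELA, a subunit of NF-kappa-B, had -1.34 in the same way, and IRF5, a transcription factor activated through MYD88, had -1.57 with animal 4 at 0.06. Adjusted p values of these 6 genes ran from 0.262 to 0.298 (limma). Among the inhibitors, IRAK3, which blocks the release of kinases from the receptor complex, had -1.24 and the deubiquitinase CYLD -1.16, while ATF3, a transcriptional repressor of cytokine genes, had 1.21. FOS and JUN, which form the factor AP-1, had mean log2 ratios of 2.01 and 2.04 and were above 0 in 4 of 4 animals. CTSB, an endosomal protease, was likewise above 0 in 4 of 4 with a mean of 1.45.

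Of 16 tested genes that the pathway induces, 14 had mean log2 ratios below 0 and 2 above, with a median of -0.84, and none was called. PTGS2, the inducible cyclooxygenase, had a mean log2 ratio of -2.74, the neutrophil chemokine IL8 -1.98 and the cytokine IL1B -2.002. In all 3 genes the ratio was most negative in animal 1, at -5.61, -3.77 and -4.45. The costimulatory molecules CD40 and CD80 had -1.88 and -1.11, below 0 in 4 of 4 animals. The 2 genes above 0 were the monocyte chemokine CCL2, which had 2.30 (SE 0.40, n = 4, adjusted p = 0.242, limma) and was above 0 in all 4 animals, and the cytokine TNF, which had 0.58. IL6 had log2 ratios of -6.35, 0.22, 2.49 and 1.34, so that its sign differed between animal 1 and the others as it did for TLR4 and CD14.

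**Figure D4:**
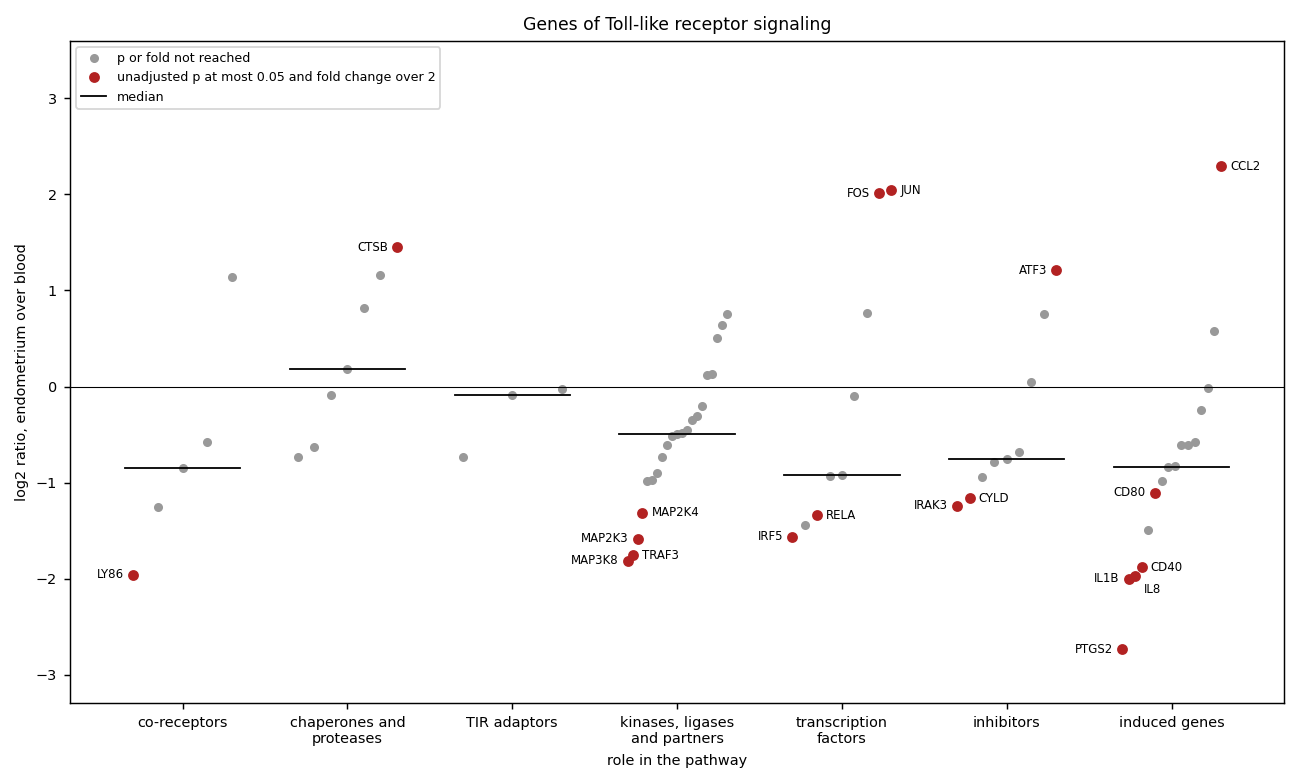
Mean log2 ratio of endometrium over blood over 4 animals (y axis) for the 70 tested genes of the pathway list, grouped by role (x axis), with a horizontal line at the median of each role. Named points had an unadjusted p up to 0.05 and a fold change above 2, and of these 19 genes 14 lie below 0 and 5 above.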

How the data were processed

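CD14+ cells of 2 tissues of 4 cows were measured on 8 Agilent bovine arrays with 2 colors. The authors deposited scanner files with the median intensity of each spot and of its background, not normalized, and a processed intensity corrected for background and dye by Feature Extraction (version 10.5.1.1 per the file headers, 9.5 per the submitters' processing notes). They also deposited a table of log2 values, with lowess applied to each array and quantile normalization across channels. To match them, the processed signals of each channel were ranked and given the column's own sorted values, so only the order of spots was compared. Averaged over the spots of a probe, each column then equaled, within 0.001 for 100% of probes, a scanner file of the same cow and dye. That file was the one listed under the column's other technical replicate. Spot by spot, 40.9% to 41.0% were equal. Any other choice matched at most 0.689% of probes, so the files were read in that way.

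Median intensities were corrected by normexp (offset 50) and normalized by loess within arrays and quantiles over the 16 channels in limma 3.58.1 (R 4.3.3). Control and outlier spots were dropped, and each probe is the average of its spots. Median intensity per channel ran from 48 to 402.75, and 65.2% to 82.9% of spots were well above background. No depth applies to arrays, and precision depends on the number of animals and the spread between them. For each cow, the mean log2 ratio of its 2 arrays (endometrium over blood) was tested against 0 over 4 animals with lmFit and eBayes, since the labels give both tissues of a cow 1 number. Deviations of the 2 tissues from their group means had correlations of 0.618, 0.364, 0.209 and 0.465 for the 4 cows in order. P values are 2-sided and were adjusted by Benjamini-Hochberg over 16653 probes. A call needs an adjusted p up to 0.05 and a fold change above 2. The fit was also run on simulated ratios with known changes. Recovery of changes was required there only at a spread below that measured, so this does not show recovery at the measured spread.

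Members and lists were chosen with earlier results of these data known. All member probes are named, with the co-receptors, the TIR adaptors and those pathway genes that had an unadjusted p up to 0.05 and a fold change above 2. Other genes named (CSF1R, CD68, CD163, ITGAM, LYZ, SPI1, CD3E, CD22, MS4A1, TNF, IL6, TLR5, PAG1) were chosen after their values were seen. For list genes with several probes the brightest was used. Not found were TLR1, SARM1, TAB1, TAB3, IRF7 and NOS2. Averaged over both tissues, the granulocyte and dendritic cell lists had 4 of 6 and 1 of 1 tested markers higher in animal 1, the epithelial list 1 of 8 and the trophoblast list 3 of 6.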

Additional observations from a re-analysis of the deposited data

Results flagged for a closer look

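Within 30 groups of 4 samples (the levels in each tissue and the ratios of the 10 probes), 7 held an end sample whose gap to its neighbor, as a share of the group's range, was above Dixon's 95% critical value for 4 samples. Chance gives this in about 1 in 20 groups. For 4 of them it was animal 1 in blood at the high end, with log2 levels of 14.24 for CD14 (others 6.31 to 7.63), 13.65 for TLR4 (8.33 to 9.11), 9.06 for TLR7 (6.11 to 6.55) and 8.58 for TLR8 (6.06 to 6.36). The log2 ratio of CD14 in animal 1, -2.08, lay below the others (0.11 to 0.51). The endometrial level of TLR9 in animal 4, 6.66, lay above the others (6.12 to 6.20), and that of MYD88 probe A_73_119857 in animal 3, 6.68, lay below them (9.87 to 10.07). The blood of animals 2 to 4 also had the lower monocyte and the higher T cell markers, whose part in these values was not tested.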

How the results depend on the processing

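Precision was limited by 4 animals and, for TLR3, TLR7, TLR8 and TLR9, by levels near background. The 11 probes called over the whole array became 224 with the scanner's processed signal or the authors' values, 66 with an offset of 16, 5 without the quantile step, 5 without the filter, 44 with the strictest filter, 20 and 5 with the arrays of technical replicate 1 or 2, and 0 with the dye-swapped animals alone, with the files as attached, or with the methods' analysis of variance after adjustment (687 before it). Leaving out each animal in turn gave 0 to 0. Without the replicate block, which ignores the pairing, the count was 4. Fitting the 8 arrays with a dye term and a random block counts technical arrays of the same 4 animals as partly separate. It gave 792, of which 1 was a member (TLR2, adjusted p = 0.0355, limma) and 12 were pathway genes. An unadjusted limma p gave 1729, with 1 member and 19 pathway genes, and the unadjusted analysis of variance gave 11 pathway genes. No other setting called a member, and the block changed no member's call. The processed signal and the authors' values moved the median of all probes from -0.02 to -0.14.

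TLR2, TLR3 and both MYD88 probes kept their direction in the 16 settings other than the files as attached. TLR2 ran from -2.77 to -1.65 and TLR3 from 0.63 to 2.14. These settings are not 16 separate checks. Changing the filter, dropping the block or using the adjusted analysis of variance cannot move a ratio. The swapped animals alone are the same fit as leaving out animal 3. For these probes the processed signal and the authors' values gave the same ratios. The log2 ratio of TLR7 turned to -0.066 with the processed signal or the authors' values, and that of TLR4 to -0.26 in the swapped animals alone. With the files as attached, which exchanges the tissues in 3 animals, signs turned for CD14 (0.59), TLR2 (0.44), TLR6 (0.19), TLR3 (-0.34), TLR7 (-0.40), TLR8 (0.40), TLR9 (-0.19) and MYD88 A_73_106547 (0.25). Leaving out each animal in turn, CD14 ran from -0.614 to 0.247 (positive without animal 1), TLR4 from -0.256 (without animal 3) to 1.008, TLR6 from -0.235 to 0.176 (without animal 2), TLR7 from -0.034 (without animal 1; -0.024 without animal 2) to 0.347, TLR8 from -0.4 to 0.097 (without animal 1) and TLR9 from -0.029 (without animal 4) to 0.202. Beyond these constructions the cause was not tested.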
